A study of Glycine max with 54 samples.

Results

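The 100 genes described here had the largest excess of transcript in aphid-infested over mock-treated soybean leaves at 96 h after infestation (HAI) when 3 genotypes were required to show it together. They were taken from 32958 annotated genes of chromosomes 1 to 13 with a value in at least 1 library. The unit is CPM, the counts of a gene scaled so that those of chromosomes 1 to 13 sum to 1000000 in each library. In each genotype the log2 ratio of the infested over the mock mean was formed at 96 HAI after adding 1 CPM to both, the lowest of the 3 ratios was the score of a gene, and the 100 highest scores were kept. The infested against mock contrast at 96 HAI is what the genes were selected on and is described without a test, and the libraries of 24 and 48 HAI, which the choice did not use, carry the tests. The tests of 48 against 24 HAI are nonetheless not independent of the choice, for a reason given with them.

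The groups were infested leaves, on which each leaflet of a trifoliolate leaf carried 6 caged soybean aphids (Aphis glycines), and mock leaves of uninfested seedlings under an empty cage. The genotypes were P203, labelled antixenotic, a resistance in which aphids avoid the plant, P746, labelled antibiotic, a resistance in which aphids on the plant do poorly, and the susceptible Dongnong47. RNA came from the caged leaf area at 24, 48 and 96 HAI. Each of the 18 groups had 3 replicates, so that 54 libraries were used, and each genotype stands for its type of resistance alone. The study calls the replicates biological, but the labels do not say which seedlings shared a day or a chamber.

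Aphids push their stylets between leaf cells and feed on phloem sap. Plants answer such feeders largely through the hormones jasmonic acid (JA) and salicylic acid (SA). Lipoxygenases add oxygen to unsaturated fatty acids, and some of them, not all, perform an early step of JA synthesis. Transcription factors relay these and many other cues, among them light and developmental signals. Only 8 of the 100 genes carry a name or family in the sources used here, 2 lipoxygenases and 6 transcription factors, and the other 92 are given by identifier alone.

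Library totals ran from 16596469 to 34982790 counts. The files list, beside annotated genes, 5207 loci with identifiers given during transcript assembly, and by the overlap of these loci the libraries fell into 3 sets. The median shared fraction of such loci was at least 0.606 between libraries of 24 HAI, at least 0.511 among libraries of 48 HAI and infested libraries of 96 HAI, and 0.664 among mock libraries of 96 HAI, whereas it was at most 0.016 between the sets. Infested and mock leaves were thus in the same set at 24 and at 48 HAI and in different sets at 96 HAI, where treatment and set cannot be told apart. Time and set cannot be told apart for 48 against 24 HAI either. The library labelled Dongnong47 96 HAI infested replicate 1 showed 6.33% of 79 markers in the Dongnong47 state, against 81.0% to 100% in the other 17 libraries with that label, and it did not enter the choice. The library labelled P746 48 HAI infested replicate 3 showed 79.7% of them in the Dongnong47 state. The 12 libraries labelled P746 at 48 and 96 HAI showed 57.1% to 97.4% of 77 other markers in the P203 state. The lowest share was that of 48 HAI infested replicate 3. It lay at the level of the other 17 libraries labelled Dongnong47, which showed 54.5% to 66.2% of these markers in the P203 state. Among the infested libraries labelled P746 at 24 HAI this share was 96.1%, 3.90% and 49.4%, so that group too is mixed by these markers, and P746 is a label here. Results of joint fits are also given without it. None of the 100 genes was a marker. The identifiers could not be paired with the names of leaf marker genes, so the tissue label was not checked.

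At 96 HAI the infested over mock log2 ratios of the 100 genes had medians of 3.23 in Dongnong47, 3.39 in P203 and 3.0 in P746, while 22988 genes with a mean of at least 1 CPM had medians of -0.48, 0.26 and -0.22. The scores ran down to 2.09, and 489 genes scored at least 1. Just inside the limit lay GLYMA07G08605, GLYMA02G08910 and GLYMA08G10010, each with a score of 2.09, and just outside it GLYMA02G40230 and GLYMA13G42760 with 2.06 and GLYMA01G20710 with 2.05. All 8 infested libraries used lay above all 9 mock libraries of 96 HAI for 67 of the 100 genes, and for 1.72% of all genes. Without the libraries labelled P746 this held for 85 genes, and for 4.35% of all genes. Together the 100 genes took 1.58% to 6.76% of the counts of chromosomes 1 to 13 in infested libraries of 96 HAI and 0.0594% to 0.512% in mock libraries of 96 HAI. Their share was 0.134% to 1.07% in the 18 libraries of 24 HAI and 1.31% to 5.13% in the 18 libraries of 48 HAI, infested and mock together.

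**Figure D1:**
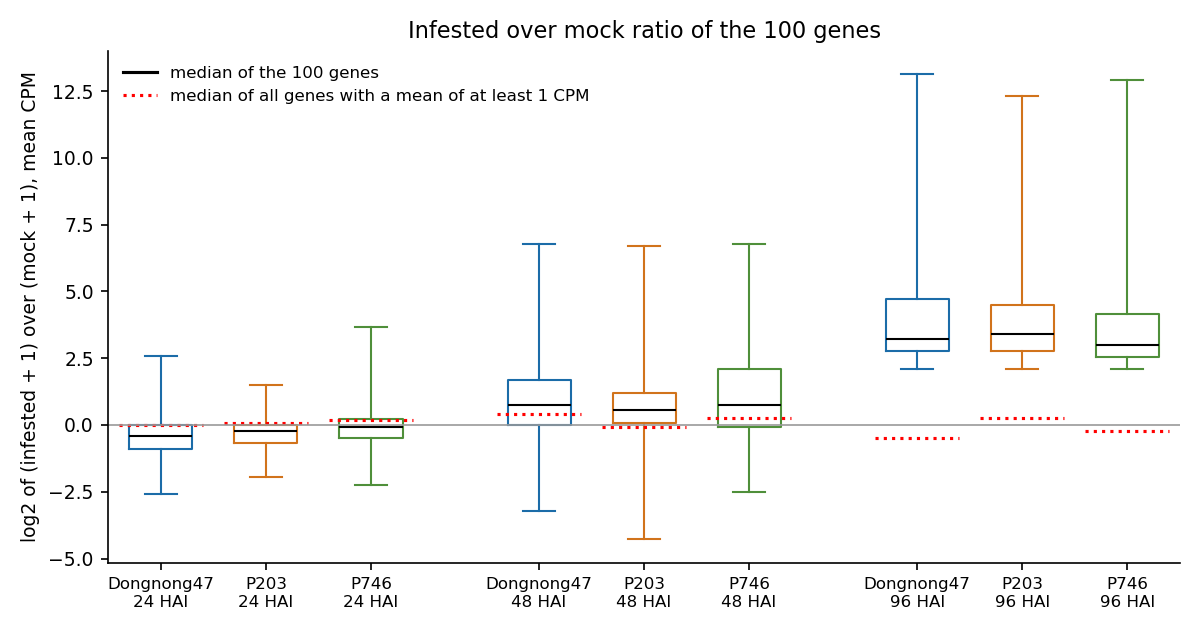
Log2 ratio of infested over mock mean CPM, each plus 1, for the 100 genes by genotype at 24, 48 and 96 HAI. Boxes span the quartiles of the genes, whiskers reach the lowest and highest gene, black lines are medians of the 100 genes, and dotted red lines are medians of the 22988 genes with a mean of at least 1 CPM. The 96 HAI boxes lie high because the ratios there chose the genes, and their medians of 3.0 to 3.39 stand beside medians of 0.57 to 0.76 at 48 HAI and -0.40 to -0.06 at 24 HAI.

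The gene with the highest score, GLYMA08G08800, was also the most abundant of the 100. In infested leaves of 96 HAI it had 14815 and 9929 CPM in Dongnong47, 7609, 6009.5 and 3419 CPM in P203 and 16803, 16186 and 9357 CPM in P746, while the 9 mock libraries held 0 to 1.54 CPM with a median of 0.187. The infested and mock libraries of 96 HAI did not come near each other. At 48 HAI, however, the 9 infested libraries held 4569 to 17912 CPM (median 8558) and the 9 mock libraries 6644 to 14165 CPM (median 12307), and at 24 HAI no library of either treatment exceeded 1.69 CPM. The transcript was thus abundant in every library of 48 HAI and in infested leaves of 96 HAI, and nearly absent from every library of 24 HAI and from mock leaves of 96 HAI.

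A different course was that of the second gene by score, GLYMA02G15895. Infested leaves of 96 HAI held 82.7 to 239 CPM (8 libraries, median 128) and mock leaves 0.0578 to 0.313 CPM (9 libraries, median 0.199). In all 36 libraries of 24 and 48 HAI its level lay between 70.9 and 415 CPM, in infested and mock leaves alike. Only the mock libraries of 96 HAI stood apart. GLYMA01G42860 did the same, with 9.80 to 130.2 CPM in the 8 infested libraries of 96 HAI, 0 to 0.209 CPM in the mock libraries of 96 HAI and at least 14.1 CPM in every library of 24 and 48 HAI.

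GLYMA07G08595 had the course of GLYMA08G08800 at a lower level, with at most 0.0385 CPM at 24 HAI, at least 5.21 CPM at 48 HAI, 18.6 to 199 CPM in infested leaves of 96 HAI and at most 0.406 CPM in mock leaves of 96 HAI. GLYMA10G39451, described below with the 48 HAI comparison, was also higher in infested leaves of 48 HAI. GLYMA11G06500 had 31.1 to 251 CPM in infested leaves of 96 HAI (median 133) and 1.29 to 7.20 CPM in mock leaves of 96 HAI (median 4.11). Its 24 HAI libraries, at 8.25 to 62.8 CPM, were above the mock libraries of 96 HAI and mostly below those of 48 HAI, at 29.5 to 237 CPM. GLYMA07G01730 varied widely between replicates of a group: infested leaves of 96 HAI held 8628 and 211 CPM in Dongnong47, 474, 787 and 26.8 CPM in P203 and 845, 3759 and 2155 CPM in P746, and mock leaves 2.65 to 82.4 CPM. The lowest infested library, P203 replicate 3, lay within the mock range, so the groups overlapped. GLYMA08G12340, GLYMA08G21410 and GLYMA13G09140 had medians of 46.9, 76.7 and 67.9 CPM in infested leaves of 96 HAI and 0.0616, 0.571 and 0.38 CPM in mock leaves of 96 HAI.

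**Figure D2:**
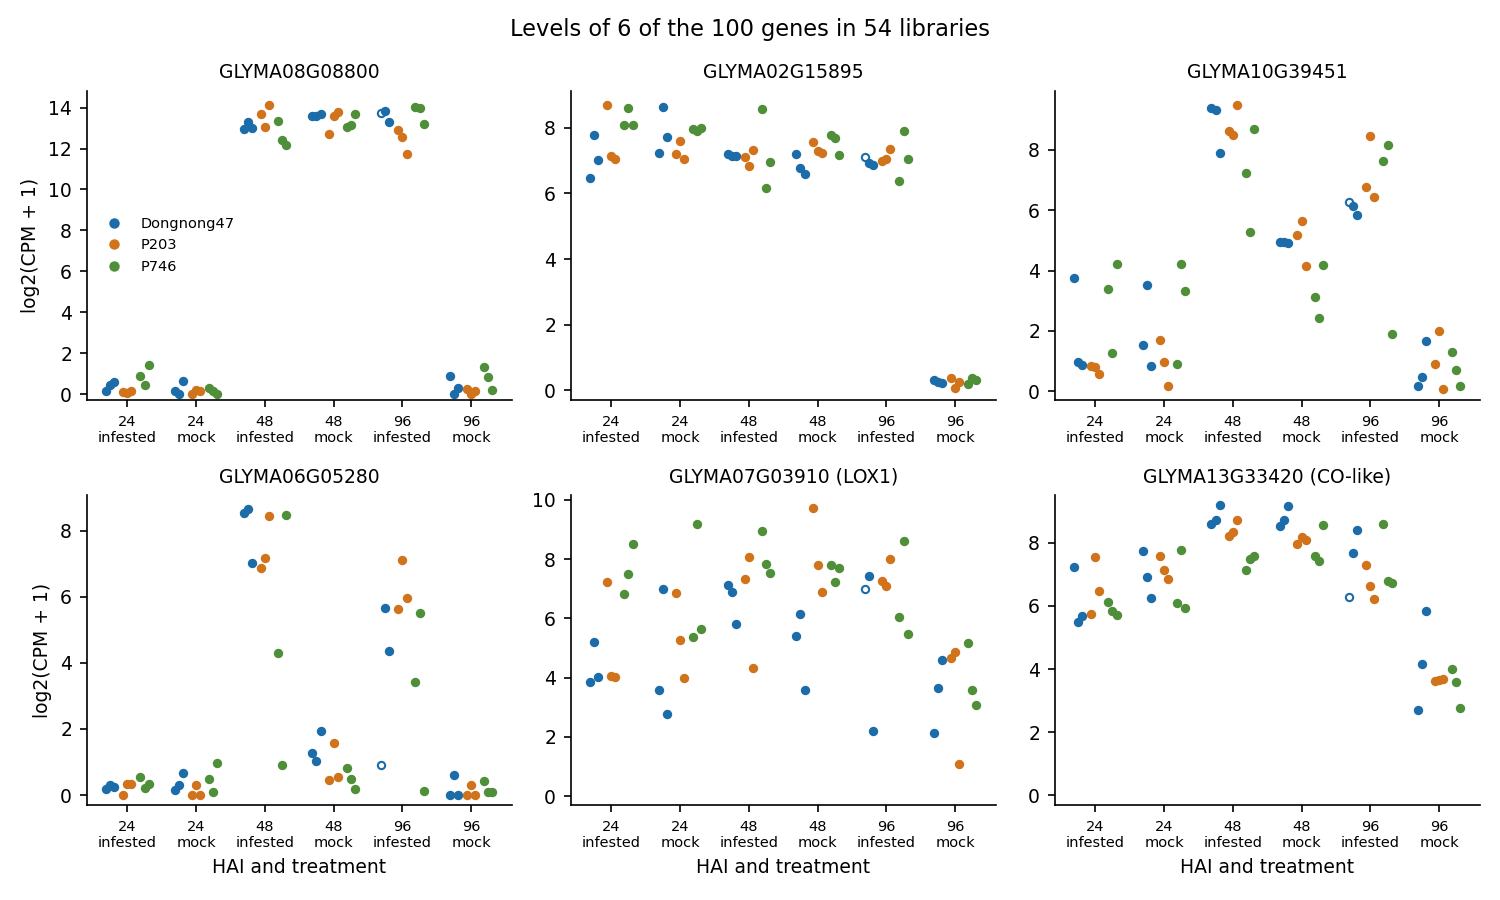
Level of 6 of the 100 genes, as log2(CPM + 1), in each of the 54 libraries, by time and treatment, with infested left of mock at each time. Points are libraries, coloured by labelled genotype, and the open point is the library left out of the choice. GLYMA08G08800 is near 0 in all libraries of 24 HAI and in mock libraries of 96 HAI, GLYMA02G15895 only in mock libraries of 96 HAI, and GLYMA06G05280 is high mainly in infested libraries of 48 and 96 HAI.

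Taken over the 100 genes, the mock libraries of 96 HAI stood lowest and those of 24 HAI next. The median over the genes of log2(CPM + 1), relative to the mean of each gene over 54 libraries, was -1.67 to -1.06 in infested libraries and -1.32 to -0.57 in mock libraries of 24 HAI. It was 0.39 to 2.17 in infested libraries and -0.16 to 1.31 in mock libraries of 48 HAI. At 96 HAI it was 0.75 to 1.83 in the 8 infested libraries and -2.12 to -1.34 in the 9 mock libraries. The infested libraries of 96 HAI lay within the range of the infested libraries of 48 HAI, with a median of 1.67 against 1.85, and partly above the mock libraries of 48 HAI, with a median of 1.15.

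**Figure D3:**
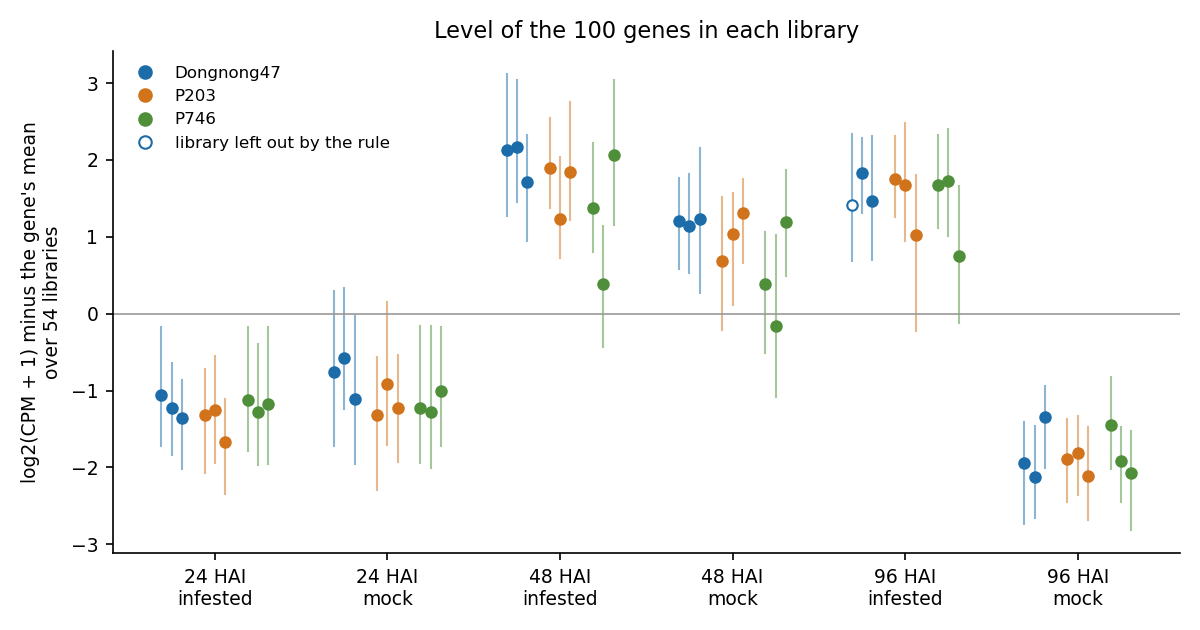
Median over the 100 genes of log2(CPM + 1) minus the mean of the gene over 54 libraries, 1 point per library, with lines from the lower to the upper quartile of the genes. Infested stands left of mock at each time, colours are labelled genotypes, and the open point is the library left out of the choice. Infested libraries of 96 HAI, at 0.75 to 1.83, lie within the range of infested libraries of 48 HAI, and mock libraries of 96 HAI, at -2.12 to -1.34, lie below mock libraries of 48 HAI, at -0.16 to 1.31.

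Counted gene by gene, all 9 mock libraries of 96 HAI lay below all 9 mock libraries of 48 HAI for 55 of the 100 genes (2.16% of all genes), below all 18 libraries of 48 HAI for 51 (1.3% of all genes), and below all 9 mock libraries of 24 HAI for 17 (1.62% of all genes). All 18 libraries of 24 HAI lay below all 18 libraries of 48 HAI for 30 genes (2.44% of all genes). For 27 genes all libraries of 24 HAI and all mock libraries of 96 HAI lay below all libraries of 48 HAI and the 8 infested libraries of 96 HAI (0.378% of all genes). Without the libraries labelled P746, and so with fewer libraries to keep apart, these 5 counts were 70 (3.17% of all genes), 69 (2.70%), 23 (2.60%), 46 (4.35%) and 39 (0.961%). The level in mock leaves at 96 HAI was used by the choice, and these counts describe what was chosen.

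In infested leaves the 96 over 48 HAI log2 ratio of group means had medians over the 100 genes of -0.32 in Dongnong47, -0.29 in P203 and -0.05 in P746, while the medians over all genes were -0.33, 0.26 and -0.30. In mock leaves, where 96 and 48 HAI are in different sets, the medians of the 100 genes were -2.87, -2.96 and -2.41, with all-gene medians of 0.55, -0.09 and 0.17. Infested leaves of 96 HAI, which share a set with the 48 HAI libraries, had the highest mean of the 6 groups of their genotype in all 3 genotypes for 7 genes (1% of all genes), GLYMA03G07880, GLYMA07G08595, GLYMA11G02590, GLYMA12G23131, GLYMA13G12074, GLYMA13G12181 and GLYMA13G25200. Mock leaves of 96 HAI had the lowest mean in all 3 genotypes for 43 genes (2.51% of all genes), and a mean below those of mock leaves of 24 and 48 HAI for 53 genes (6.13% of all genes). Infested leaves of 96 HAI exceeded mock leaves of 48 HAI, on the mean, in all 3 genotypes for 50 genes (28% of all genes) and lay below them for 3 (15% of all genes). The choice used the 96 HAI levels of both treatments. The medians and counts of this paragraph therefore describe what was chosen and are no independent support.

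**Figure D4:**
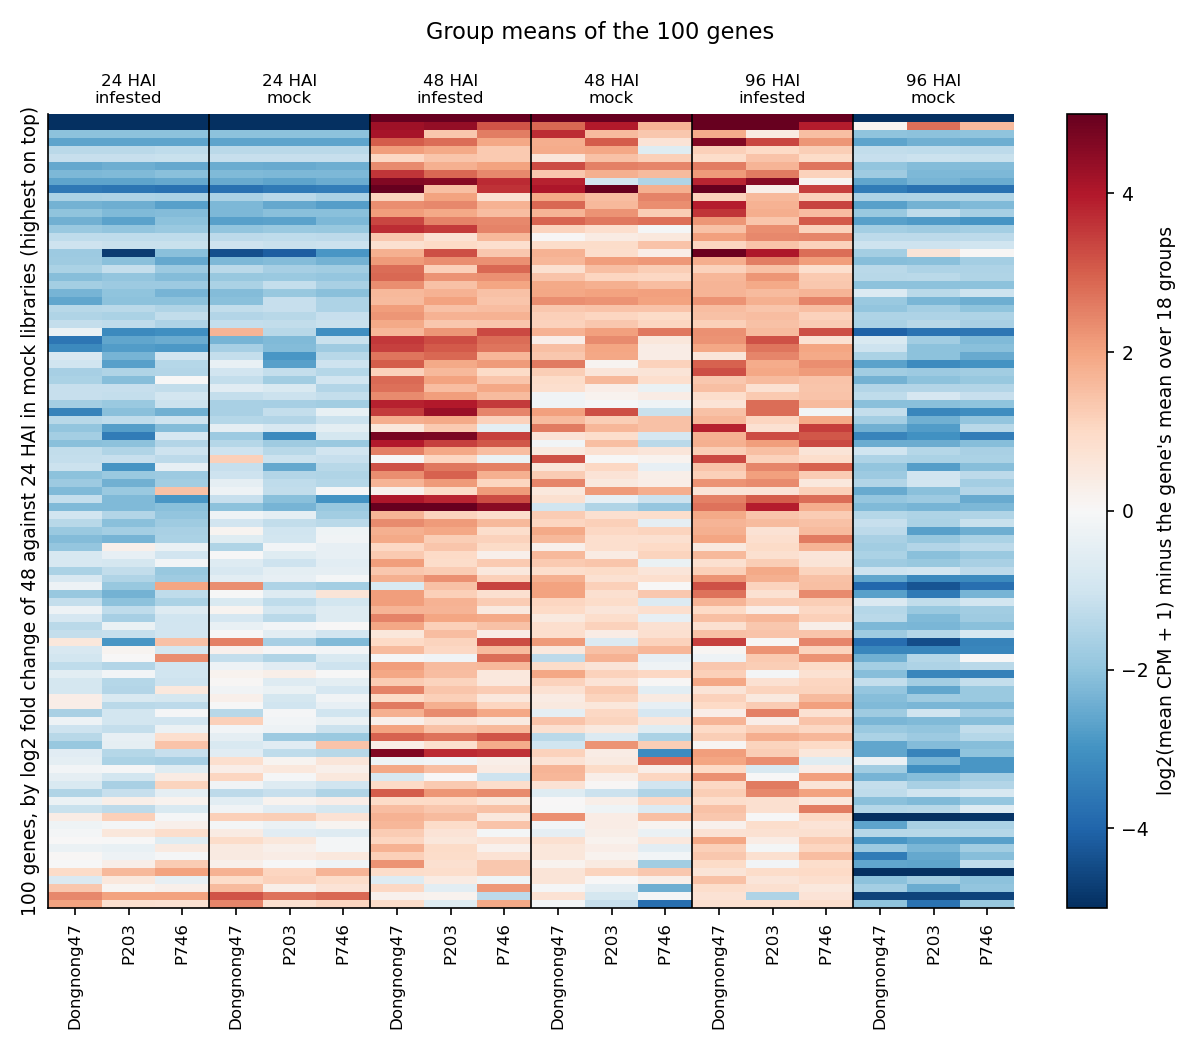
Group means of the 100 genes as log2(mean CPM + 1) minus the mean of the gene over the 18 groups, with colours limited to 5 log2 units either way. Columns are genotypes within each time and treatment, infested left of mock, and genes are ordered by their log2 fold change of 48 against 24 HAI in mock libraries. The 3 columns of mock leaves at 96 HAI are low for nearly every gene, the columns of 24 HAI are low for the upper genes, and the columns of 48 HAI and of infested leaves at 96 HAI are high for most genes.

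Whether the genes differed between 48 and 24 HAI was tested in the 18 infested and, apart, in the 18 mock libraries of these times, with genotype as a covariate (edgeR quasi-likelihood test, Benjamini-Hochberg adjustment over all genes tested). A gene was called where its adjusted p was under 0.05 and its log2 fold change was 1 or more in size. In the infested libraries 82 of the 100 genes were higher at 48 HAI, against 14.8% of all genes, and 1 was lower, against 14.6% of all genes. The median log2 fold change of 48 against 24 HAI was 3.67 for the 100 genes and -0.01 for all genes tested. In the mock libraries 64 of the 100 genes were higher at 48 HAI, against 7.35% of all genes, and 3 were lower, against 9.37% of all genes. The median there was 1.90 for the 100 genes and -0.03 for all genes tested. All 64 genes that rose in mock leaves also rose in infested leaves, 18 were called in infested leaves alone, and whether the time effect of any of these differed between the treatments was not tested. Without the libraries labelled P746 the counts of higher genes were 84 in infested (15.2% of all genes) and 59 in mock libraries (5.29% of all genes).

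GLYMA08G08800 showed the largest rise between the times, by 14.48 on the log2 scale in infested leaves (SE 0.79, adjusted p = 5.8e-09) and by 16.33 in mock leaves (SE 0.73, adjusted p = 3.7e-10). GLYMA13G12074 rose by 11.59 in infested leaves (SE 1.3, adjusted p = 3.2e-06) and by 12.29 in mock leaves (SE 0.85, adjusted p = 5.1e-08). At 48 HAI it held 281 to 3643 CPM in mock leaves, against 0 to 0.525 CPM in mock leaves of 24 HAI. GLYMA01G33708 had no count in any of the 18 libraries of 24 HAI. Its identifier had no value in 25 libraries of the series, 7 of them mock libraries of 96 HAI, and missing values counted as 0. With 3 counts over 9 libraries as the floor it was at least 2282-fold higher at 48 than at 24 HAI in infested leaves and at least 1169-fold higher in mock leaves. GLYMA07G08595, with 1 count in infested leaves and no count in mock leaves of 24 HAI, was at least 1281-fold higher at 48 HAI in mock leaves. The identifier of GLYMA07G08595 had no value in 21 libraries, 4 of them mock libraries of 96 HAI. These genes thus had no value or few counts in the first set and higher counts in the second. Whether a missing value marks an absent transcript or an identifier not used in that set was not tested. The sizes of their rises therefore depend on few counts at 24 HAI.

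The genes called lower at 48 than at 24 HAI were few. GLYMA10G11557 fell by 2.71 on the log2 scale in infested leaves (SE 0.75, adjusted p = 0.0071) and by 3.08 in mock leaves (SE 0.47, adjusted p = 0.00018), with 6.34 to 50.4 CPM at 48 HAI, against 44.2 to 301 CPM at 24 HAI, in mock leaves. None of the 9 mock libraries of 96 HAI gave a value for GLYMA10G11557, and the missing values counted as 0. GLYMA05G29630, with a log2 fold change of -3.33 (SE 1.10, adjusted p = 0.029), and GLYMA08G12750, with -2.16 (SE 0.77, adjusted p = 0.04), were called in mock leaves only with the libraries labelled P746 in the fit. The count of 3 lower genes in mock leaves went to 1 also without P203 24 HAI mock replicate 3, P203 48 HAI mock replicate 2 or any of the P746 48 HAI mock replicates.

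At 48 HAI infested and mock leaves were in the same set, and the excess of the 100 genes in infested leaves was smaller than at 96 HAI and limited to part of them. A smaller excess than at 96 HAI follows in part from the choice, which took the highest ratios of that time. In Dongnong47 18 of the 100 genes were higher in infested leaves, against 4.19% of all genes, and 8 were lower, against 5.04% of all genes. The median log2 fold change was 0.31 for the 100 genes and 0.04 for all genes tested. With total counts in place of TMM the all-gene median of log2 ratios was 0.43 and the calls were 36 higher (14.2% of all genes) and 5 lower (1.71%). These counts rested on single libraries: without Dongnong47 48 HAI infested replicate 1 or replicate 2 no gene was called in either direction, and 9 were called higher without mock replicate 2. In P203 no gene was called (0% of all genes), although at an unadjusted p under 0.05 22 of the 100 were higher (3.62% of all genes) and 1 lower (2.63%). DESeq2 called 10 genes higher (0.275% of all genes) and 1 lower (0.235%) in P203. In P746 none of 99 genes tested was called (0% of all genes), with 17 higher (5.58% of all genes) and 4 lower (3.31%) at an unadjusted p under 0.05, and DESeq2 called 13 higher (0.995%) and none lower (0.463%). With P746 infested replicate 2 left out, edgeR called 13 higher and 2 lower. Most counts with 1 library left out, here and below, are given without the share of all genes called, which may move with them.

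In P203 at 48 HAI all 3 infested libraries lay above all 3 mock libraries for 25 of the 100 genes, where 6.16% of all genes did, and below them for 1, where 6.18% of all genes did. In Dongnong47 they lay above for 48 genes, close to the 45.9% of all genes, and below for 10, with 5.52% of all genes. In P746 they lay above for 8 genes, with 9.53% of all genes, and below for 5, with 4.84% of all genes.

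A joint fit of the 18 libraries of 48 HAI with genotype as covariate, added after the fits of single genotypes were seen, called 17 of the 100 genes higher in infested than in mock leaves (1.98% of all genes) and none lower (0.746% of all genes). At an unadjusted p under 0.05 33 were higher (13% of all genes) and 6 lower (9.91%), and DESeq2 called 28 higher (3.01%) and 1 lower (1.47%). Of the 17 genes 15 were also called in Dongnong47 alone. The count was 11 without P746 48 HAI infested replicate 3, the library with Dongnong47 markers, 26 without P746 48 HAI infested replicate 2, and 14 (0.866% of all genes) without any library labelled P746. All 17 were also called higher at 48 than at 24 HAI in infested leaves, and 11 of them in mock leaves.

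GLYMA06G05280 had the largest difference at 48 HAI. Infested leaves held 369, 399 and 128 CPM in Dongnong47, 117, 143 and 346 CPM in P203 and 18.7, 0.88 and 351 CPM in P746, while the 9 mock libraries held 0.139 to 2.81 CPM. All infested libraries but P746 replicate 2 were above every mock library. The difference was 7.48 on the log2 scale in the joint fit (SE 0.89, adjusted p = 0.00089) and 6.89 in Dongnong47 (SE 0.66, adjusted p = 0.013). At 24 HAI neither treatment exceeded 0.95 CPM. At 96 HAI infested leaves held 49.5 and 19.5 CPM in Dongnong47, 48.6, 138 and 61.1 CPM in P203 and 9.79, 44.1 and 0.0823 CPM in P746, and mock leaves at most 0.53 CPM. The library left out of the choice had 0.886 CPM.

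GLYMA10G39451 rose in infested leaves of 48 HAI to 666, 634 and 239 CPM in Dongnong47, 389.6, 361 and 720.2 CPM in P203 and 38.2 to 409.6 CPM in P746, against 28.9 to 29.8 CPM, 16.9 to 49.2 CPM and 4.38 to 17 CPM in mock leaves of these genotypes. In each genotype every infested library exceeded every mock library. The joint log2 fold change was 3.87 (SE 0.42, adjusted p = 0.00089). Mock leaves too held more of it at 48 than at 24 HAI, by 2.61 on the log2 scale (SE 0.83, adjusted p = 0.025).

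GLYMA05G27740, GLYMA06G44780 and GLYMA01G38500 were also higher in infested leaves, with joint log2 fold changes at 48 HAI of 5.08 (SE 0.86, adjusted p = 0.0055), 4.34 (SE 0.54, adjusted p = 0.0012) and 4.11 (SE 0.73, adjusted p = 0.0059). GLYMA06G44780 held 12.3 to 46.4 CPM in infested leaves of Dongnong47, 12.9 to 27.8 CPM in those of P203 and 0.88 to 45.6 CPM in those of P746, while no mock library exceeded 2.24 CPM. P746 48 HAI infested replicate 2 was again at the mock level for all 3 genes. At 48 against 24 HAI in mock leaves GLYMA01G38500 rose, by 2.90 (SE 0.56, adjusted p = 0.0011), while GLYMA05G27740 had 0.72 (SE 0.95, adjusted p = 0.59) and GLYMA06G44780 0.53 (SE 0.36, adjusted p = 0.27). The other genes called in the joint fit had log2 fold changes from 1.01 to 4.23.

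Over the 100 genes the infested over mock log2 ratio of mean CPM at 48 HAI was at least 1 in all 3 genotypes for 20 genes (1.24% of all genes) and at least 2 for 8 (0.209% of all genes), and 15 of these 20 were called in the joint fit. For 30 genes it lay within 1 of 0 in every genotype (68.3% of all genes), and it was at most -1 in every genotype for none (0.157% of all genes). Without P746 the count at or above 1 was 22 (1.54% of all genes). The mean of the 3 ratios was above 0 for 79 of the 100 genes, with 71% of all genes, and its median was 0.64 for the 100 genes and 0.21 for all genes.

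In Dongnong47 at 48 HAI 8 of the 100 genes were called lower in infested leaves, against 5.04% of all genes tested, which is no clear excess. The largest falls there are given here. GLYMA13G25200 held 1.5, 2.35 and 1.92 CPM in infested leaves, against 10.8, 28.6 and 39.7 CPM in mock leaves, and fell by 4.35 on the log2 scale (SE 0.56, adjusted p = 0.013). In P203 the same gene had 5.61, 4.76 and 5.81 CPM in infested leaves and 0, 2.43 and 3.57 CPM in mock leaves, a log2 fold change of 1.41 (SE 1.25) that was not called. GLYMA02G08910, with 8.90, 14.8 and 12 CPM in infested leaves and 49.3, 47.3 and 115 CPM in mock leaves, fell by 3.14 (SE 0.46, adjusted p = 0.013). GLYMA08G08761 fell by 2.63 (SE 0.35, adjusted p = 0.013), with 8.43 to 17.1 CPM in infested and 33.7 to 62.4 CPM in mock leaves of Dongnong47. These genes, chosen for an excess in infested leaves at 96 HAI, were thus lower in infested leaves of the same genotype at 48 HAI, in calls that, as stated, were lost without infested replicate 1 or replicate 2.

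At 24 HAI none of the 100 genes was called higher in infested leaves by edgeR in any genotype. In Dongnong47, of 74 genes tested, 0 were called higher (1.08% of all genes) and 0 lower (0.06% of all genes), while 0 were higher (4.93%) and 19 lower (3.99%) at an unadjusted p under 0.05 and DESeq2 called 5 lower (0.443%). Same-numbered libraries of the treatments deviated together here, and with the replicate number as a block 8 genes were called lower (0.232% of all genes). In P203, of 70 genes tested, 0 were called (0% of all genes), with 1 higher (1.92%) and 5 lower (1.28%) at an unadjusted p under 0.05 and 1 lower by DESeq2 (0.0235%). In P746, of 75 genes tested, 0 were called (0.00422% of all genes higher, 0% lower), with 2 higher (8.37%) and 8 lower (4.54%) at an unadjusted p under 0.05, and DESeq2 called 1 higher (2.68%) and 4 lower (0.949%). The genes not tested did not pass the filter on low counts. Median log2 fold changes were -0.79, -0.71 and -0.39 for the tested members, and -0.06, -0.01 and 0.03 for all genes tested.

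In Dongnong47 at 24 HAI all 3 infested libraries lay below all 3 mock libraries for 16 of the 100 genes (4.45% of all genes) and above them for 3 (7.17% of all genes). In P203 they lay below for 7 genes (2.04% of all genes) and above for 1 (5.84% of all genes). In P746 they lay below for 8 genes (4.92% of all genes) and above for 7 (19% of all genes).

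The mean of the 3 log2 ratios at 24 HAI was above 0 for 34 of the 100 genes, with 63.9% of all genes, and its median was -0.17 for the 100 genes and 0.10 for all genes. The ratio was below 0 in all 3 genotypes for 38 genes (11.5% of all genes) and at least 1 in all 3 for none (0.848% of all genes). It was at most -1 in all 3 for 4 genes (0.0957% of all genes), GLYMA03G38260, GLYMA06G17216, GLYMA06G17233 and GLYMA08G08761. The joint fit of 24 HAI called 1 gene lower (0.115% of all genes) and none higher (0.898% of all genes), while 28 were lower (6.01%) and 0 higher (6.98%) at an unadjusted p under 0.05, and DESeq2 called 6 lower (0.472%) and none higher (1.33%). The called gene, GLYMA01G30390, held 1.07 to 5.39 CPM in infested leaves and 3.94 to 8.95 CPM in mock leaves, a log2 fold change of -1.38 (SE 0.30, adjusted p = 0.027). The call was lost with the replicate block, without P746, and without any 1 of Dongnong47 mock replicate 1, Dongnong47 infested replicates 2 and 3, P203 infested replicates 1 and 3 and P746 infested replicates 1 and 3. The number called was 2 without Dongnong47 infested replicate 1 and 4 without P203 infested replicate 2.

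**Figure D5:**
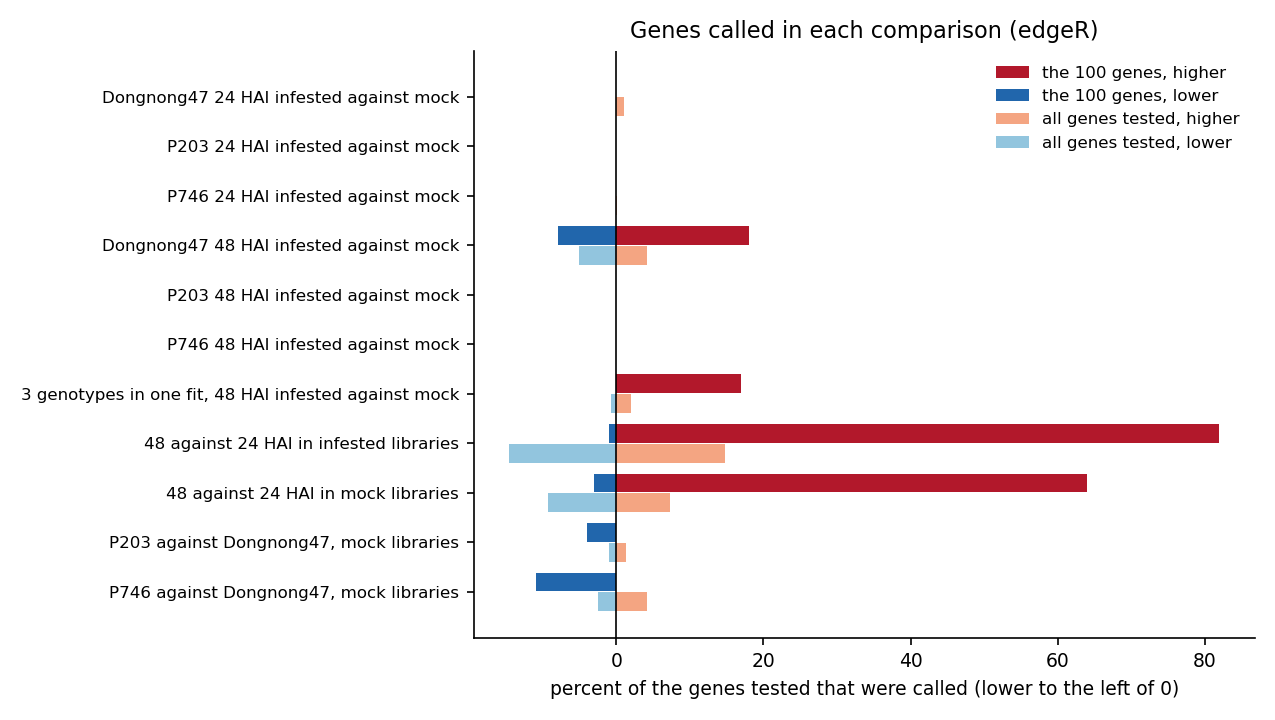
Percent of genes tested that were called higher (right of 0) or lower (left of 0) in each comparison by edgeR, for the 100 genes in dark and all genes tested in light colours. The 48 against 24 HAI comparisons have the longest bars of the 100 genes, 82 in infested and 64 in mock libraries called higher, followed by Dongnong47 at 48 HAI with 18 and the fit of 3 genotypes at 48 HAI with 17.

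The named genes among the 100 begin with 2 lipoxygenases that the study lists as LOX1 under JA biosynthesis. GLYMA07G03910 (rank 50) had 172 and 3.53 CPM in Dongnong47, 153, 135 and 253 CPM in P203 and 65.8, 392 and 42.9 CPM in P746 in infested leaves of 96 HAI, and 1.11 to 35.1 CPM in mock leaves of 96 HAI. GLYMA13G42340 (rank 54) had 9.19 to 391 CPM (8 libraries, median 238) in infested leaves and 3.9 to 52.6 CPM (9 libraries, median 35.7) in mock leaves of 96 HAI. In Dongnong47 infested replicate 3 was at the mock level for both genes, with 3.53 CPM of GLYMA07G03910 and 9.19 CPM of GLYMA13G42340, and the groups overlapped. At 48 HAI neither was called, with joint log2 fold changes of 0.03 (SE 0.52, adjusted p = 0.98) and -0.60 (SE 0.54, adjusted p = 0.54), and at 24 HAI neither was, with -0.50 (SE 0.67, adjusted p = 0.76) and -0.48 (SE 0.69, adjusted p = 0.78). Between the times, GLYMA13G42340 rose at 48 HAI by 1.89 in infested leaves (SE 0.58, adjusted p = 0.014) and by 1.97 in mock leaves (SE 0.64, adjusted p = 0.027). GLYMA07G03910 rose by 1.32 in infested leaves (SE 0.51, adjusted p = 0.04) and had 0.69 in mock leaves (SE 0.76, adjusted p = 0.51).

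The study lists 35 JA genes with a value on chromosomes 1 to 13, 12 of them lipoxygenases. It chose its lists of JA, SA and transcription factor genes on these libraries, so they are no independent evidence. The median 96 HAI score was -1.02 for the JA genes and -0.23 for the lipoxygenases, while it was -0.59 for all genes. The 2 JA genes with a score of at least 1, where 2.08% of all genes had one, were the LOX1 genes. In the joint fit of 48 HAI 1 of 35 JA genes was higher and 3 were lower, where 1.98% and 0.746% of all genes were, and none of 12 lipoxygenases was called. Between the times 6 of 35 JA genes were higher and 7 lower at 48 HAI in infested leaves, where 14.8% and 14.6% of all genes were, and 3 were higher and none lower in mock leaves, where 7.35% and 9.37% of all genes were. None of 18 SA genes, 8 callose synthase genes and 3 catalase genes with a value was among the 100, and their median scores were -1.57, -0.50 and -0.71. With 100 of 32958 genes chosen, lists this short would seldom hold a member, so their absence is no result.

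Of 630 transcription factor genes 6 were among the 100, which were taken from 32958 genes, and 18 scored at least 1. Of the 22988 genes with a mean of at least 1 CPM 2.08% scored at least 1. CO-like factors, named after the Arabidopsis flowering regulator CONSTANS, gave 2 of their 3 genes. GLYMA13G33420 (rank 32) held 72.8 to 388 CPM in infested leaves of 96 HAI (8 libraries, median 133), against 5.45 to 56.2 CPM in mock leaves of 96 HAI (9 libraries, median 11.5). The groups did not overlap at 96 HAI. At 48 HAI infested and mock leaves held 139.9 to 579 and 171 to 572 CPM, with a joint log2 fold change of -0.29 (SE 0.25, adjusted p = 0.51). It rose at 48 against 24 HAI by 1.73 in infested leaves (SE 0.32, adjusted p = 0.00036) and by 1.17 in mock leaves (SE 0.34, adjusted p = 0.016). GLYMA07G10161 (rank 76) held 151 to 954 CPM in infested leaves of 96 HAI (median 292) and 19.4 to 84.5 CPM in 8 of the 9 mock libraries, with Dongnong47 mock replicate 3 among the infested levels. It held 482 to 1831 CPM in infested and 309 to 1601 CPM in mock leaves of 48 HAI. It rose at 48 HAI by 1.40 in infested leaves (SE 0.28, adjusted p = 0.00064) and had 0.59 in mock leaves (SE 0.33, adjusted p = 0.19).

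LBD factors, plant-specific proteins known in Arabidopsis for setting organ boundaries, gave 2 of their 10 genes. GLYMA01G40010 (rank 58) rose at 48 against 24 HAI by 4.38 in infested leaves (SE 0.40, adjusted p = 5.7e-07) and by 2.19 in mock leaves (SE 0.24, adjusted p = 8.8e-06). At 48 HAI its infested libraries held 23.9 to 256 CPM (median 125) and its mock libraries 15.7 to 55.6 CPM (median 39.3), a joint log2 fold change of 1.37 that was not called (SE 0.40, adjusted p = 0.058). GLYMA11G05280 (rank 81) rose by 3.63 in infested leaves (SE 0.36, adjusted p = 1.1e-06) and by 2.18 in mock leaves (SE 0.40, adjusted p = 0.00078). In Dongnong47 at 48 HAI it held 76.9, 117 and 114 CPM in infested leaves, against 135, 185 and 201 CPM in mock leaves, and fell by 1.29 (SE 0.27, adjusted p = 0.023). In P203 it held 162, 109.9 and 139 CPM in infested leaves and 49.3, 62.6 and 20.3 CPM in mock leaves, a log2 fold change of 1.75 (SE 0.43) that was not called (adjusted p = 0.77).

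GLYMA09G30050 (rank 73), a BBR-BPC factor of a family that binds GA repeats, was called at 48 HAI. Infested leaves held 83.8, 69.1 and 49.2 CPM in Dongnong47, 44.7, 36.8 and 38.5 CPM in P203 and 35.6, 23.2 and 112 CPM in P746. Mock leaves held 16.5 to 21.0 CPM, 25.3 to 28.4 CPM and 19.5 to 28.1 CPM in these genotypes. The joint log2 fold change was 1.01 (SE 0.23, adjusted p = 0.02). At 24 HAI its joint log2 fold change was -0.06 (SE 0.12, adjusted p = 0.83), and 48 and 24 HAI mock leaves did not differ beyond the test, by 0.19 (SE 0.14, adjusted p = 0.31). In mock leaves of 96 HAI it held 1.51 to 9.13 CPM, below every other library.

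GLYMA01G39040 (rank 92), a MYB_related factor with a MYB-type DNA-binding domain, was low throughout. It held 1.76 to 20.3 CPM in infested leaves (median 12.4) and 1.01 to 4.08 CPM in mock leaves (median 1.69) at 48 HAI, and rose by 2.13 in the joint fit (SE 0.46, adjusted p = 0.015). Between the times it rose by 4.93 in infested leaves (SE 0.56, adjusted p = 3.9e-06) and by 2.91 in mock leaves (SE 0.52, adjusted p = 0.00066). Among all transcription factors of the list 31 were higher and 11 lower of 609 in the joint fit of 48 HAI, where 1.98% and 0.746% of all genes were. At 48 against 24 HAI 86 were higher and 120 lower of 628 in infested leaves, where 14.8% and 14.6% of all genes were, and 43 were higher and 77 lower of 599 in mock leaves, where 7.35% and 9.37% were.

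By identifier, chromosomes 7, 8 and 13 held 13 of the 100 genes each, with 7.49%, 10.3% and 10.3% of all genes. Among the 100, 12 pairs lay within 10 steps of each other in the order of identifiers. The number of such pairs in other sets of 100 genes was not counted, so this is no result about clustering. The 12 pairs include GLYMA08G08761 and GLYMA08G08800, 3 steps apart, and GLYMA07G08595 and GLYMA07G08605, 2 steps apart. They also include the run of GLYMA13G12074, GLYMA13G12114 and GLYMA13G12181, 9 and 6 steps apart. Neighbours with like sequence could share reads, and the files do not show how such reads were divided. Of the values of GLYMA13G12074, GLYMA13G12114 and GLYMA13G12181, 100%, 96.3% and 98.1% were not whole counts, while for GLYMA07G01730 0% were.

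The 3 chromosome 13 genes were, with GLYMA08G08800 and GLYMA07G01730, the most abundant of the 100 in infested leaves of 96 HAI. GLYMA13G12181 held 1402 to 28556 CPM there (median 4857) and 31.2 to 2398 CPM in mock leaves (median 138), and GLYMA13G12074 held 1474 to 21101 CPM (median 3655) and 92.8 to 2232 CPM (median 304). In P203 mock replicate 1 both exceeded the lowest infested library. GLYMA13G12114 was spread most: 8.74 to 11902 CPM in infested leaves (median 108) and 3.51 to 6.56 CPM in mock leaves (median 4.39). None of them differed between infested and mock leaves at 48 HAI beyond the test, with joint log2 fold changes of 0.89 (SE 0.97, adjusted p = 0.62), 0.89 (SE 0.64, adjusted p = 0.43) and 0.07 (SE 1.15, adjusted p = 0.98). At 48 against 24 HAI GLYMA13G12181 rose by 4.91 in mock leaves (SE 1.09, adjusted p = 0.0031) and GLYMA13G12114 by 7.73 (SE 0.77, adjusted p = 3e-06).

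Genotypes were compared in mock leaves of 24 and 48 HAI, with time as a covariate. The 48 HAI mock libraries labelled P746 had 93.5%, 96.1% and 90.9% of the 77 markers in the P203 state. Those of 24 HAI set the P746 state. The P746 fit thus joins unlike libraries. A difference found in both P203 and P746, here and below, cannot be read as 2 separate genotypes agreeing. Of the 100 genes 4 were lower in P203 than in Dongnong47 (1.04% of all genes) and none higher (1.35% of all genes), and 11 were lower in P746 than in Dongnong47 (2.53% of all genes) and none higher (4.12% of all genes). At an unadjusted p under 0.05 18 were lower (7.78% of all genes) and 1 higher (10.5%) in P203, and 32 lower (14.9%) and 3 higher (13.1%) in P746. DESeq2 called 8 lower (1.92%) and 1 higher (3.72%) in P203 and 20 lower (3.71%) and 1 higher (5.85%) in P746. Median log2 differences were -0.51 and -0.92 for the 100 genes and -0.02 and -0.08 for all genes tested. Leaving out 1 library moved the count in P203 to 0 without Dongnong47 48 HAI mock replicate 2 or P203 48 HAI mock replicate 2, to 1 without Dongnong47 24 HAI mock replicate 1, Dongnong47 48 HAI mock replicate 1 or 3 or P203 24 HAI mock replicate 3, and to 2 without P203 24 HAI mock replicate 1. It moved the count in P746 to 3 without P746 48 HAI mock replicate 1 or replicate 2, to 4, 5 and 7 without Dongnong47 48 HAI mock replicates 3, 1 and 2, and to 6 without Dongnong47 24 HAI mock replicate 1.

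GLYMA11G27480 differed most. In mock leaves of 48 HAI it held 4.78, 2.33 and 0 CPM in P203 and 1.31, 0.0619 and 2.33 CPM in P746, against 30.1, 195 and 47.3 CPM in Dongnong47. The log2 differences were -5.80 in P203 (SE 1.09, adjusted p = 0.017) and -5.63 in P746 (SE 1.44, adjusted p = 0.034). In infested leaves of 48 HAI P203 held 289, 68.0 and 81.5 CPM and P746 10.8, 1.68 and 236 CPM, against 224, 181 and 64.5 CPM in Dongnong47, and the infested groups overlapped. GLYMA13G25200 was lower in mock leaves by 4.12 in both P203 (SE 0.90, adjusted p = 0.034) and P746 (SE 0.74, adjusted p = 0.0089). GLYMA13G09140 was lower in P203, with a log2 difference of -3.15 (SE 0.71, adjusted p = 0.038), and GLYMA03G39020 in P746, with -3.21 (SE 0.72, adjusted p = 0.021). The LBD gene GLYMA11G05280 was lower in both, with -1.77 in P203 (SE 0.39, adjusted p = 0.038) and -1.95 in P746 (SE 0.52, adjusted p = 0.039), and the other LBD gene, GLYMA01G40010, in P746, with -1.09 (SE 0.30, adjusted p = 0.043).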

How the data were processed

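Paired-end reads of leaf RNA were trimmed by the authors with SeqPrep and Sickle, mapped with HISAT2 to Glycine_max_v2.1, and counted with StringTie, with TPM from RSEM. The submitters' processing notes also name CASAVA 1.8 and Bowtie. The authors deposited estimated counts for each gene in a file for every library, of which 18.0% to 23.3% were not whole, and whether StringTie or RSEM wrote them is not stated. Identifiers are of an older form than the named build, matched 0 of 59048 RefSeq genes, and no coordinates or sequences are printed. An identifier missing from a file counted as 0, and a line that named no gene, present in 7 libraries, was dropped.

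Counts were rounded and tested with edgeR 4.0.16 in R 4.3.3 by its quasi-likelihood test after TMM scaling, with Benjamini-Hochberg adjustment, on the genes of chromosomes 1 to 13 that filterByExpr kept (min.count 10, min.total.count 15). SE is the size of the log2 fold change divided by the square root of F. DESeq2 1.42.0, other scalings, no filter, all loci, adjusted p alone, a replicate block and each library left out in turn were alternatives. The joint fits and all values without P746 were added after seeing the data. Fits were tested on simulated data. With 3 replicates per group, p-values measure the spread between these libraries, which may be technical in part. CPM used a pseudocount of 1 for ratios, and Python 3.11.15 with matplotlib 3.10.9 drew the figures.

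Genes named are the 10 highest scores, the 5 most abundant in infested leaves of 96 HAI, all in the study's lists, the 3 largest calls in each direction per comparison, and those at the limit of the choice. Others named were chosen after their values were seen. The 100 genes and all lists were chosen with earlier results of these data known. Markers were genes whose 3 mock libraries of 24 HAI in each of a pair of genotypes lay at least 2 log2 units apart (pseudocount 0.5, at least 2 CPM). Pairing was checked by correlating the deviations from group means of libraries that share a replicate number across treatments. All 3 correlations exceeded 0.1 only in Dongnong47 at 24 HAI (0.615, 0.472 and 0.199), although the labels name no shared plant or day.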

Additional observations from a re-analysis of the deposited data

Results flagged for a closer look

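The library labelled Dongnong47 96 HAI infested replicate 1, which the choice of the genes left out, had 96 of the 100 genes above all 3 mock libraries of Dongnong47 at 96 HAI, where 28.2% of all genes were. The genes were chosen with low levels in these same mock libraries, and the library is in the set of the other infested libraries of 96 HAI, so the count is largely fixed by the choice and is no independent support. Its median log2 ratio over the mean of those mock libraries was 3.08 for the 100 genes and -0.17 for all genes. Of its genotype markers 6.33% were in the Dongnong47 state.

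Of the 100 genes 2 moved in opposite directions in P203 and Dongnong47 at 48 HAI, with every infested replicate above every mock replicate in P203 and below every mock replicate in Dongnong47, as did 0.17% of all genes. Over any pair of genotypes the same 2 genes, and 3.07% of all genes, moved in opposite directions in this sense. For GLYMA13G25200 the log2 ratio of infested over mock mean CPM was 1.09 in P203 and -3.23 in Dongnong47. For GLYMA11G05280, an LBD factor, it was 1.61 in P203 and -0.75 in Dongnong47. Neither gene was called in P203, and the difference between the genotypes was not tested. At 24 HAI no gene did this.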

How the results depend on the processing

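Treatment at 96 HAI, and time between 24 and 48 HAI, cannot be told apart from the sets of libraries, and counts within single genotypes rest on 3 replicates a side. With DESeq2 members called lower were 5 in Dongnong47, 1 in P203, 4 in P746 and 6 in the joint fit at 24 HAI, with 1 higher in P746. At 48 HAI DESeq2 called 14 lower in Dongnong47 (5.26% of all genes). It called 10 higher and 1 lower in P203, 13 higher in P746, and 28 higher and 1 lower in the joint fit. In mock leaves it called 1 higher and 8 lower in P203 and 1 higher and 20 lower in P746. Total counts gave 36 higher and 5 lower in Dongnong47 at 48 HAI. They gave 29 higher in the joint fit (4.18% of all genes) and 1 higher in P746 mock leaves (6.46%). All loci gave 11 higher in Dongnong47 at 48 HAI and 6 lower in P746 mock leaves. Adjusted p alone gave 1 higher in P746 mock leaves and 1 lower in the joint fit of 48 HAI. The replicate block gave 8 lower in Dongnong47 and 0 lower in the joint fit (0.0835% of all genes) at 24 HAI. It moved no other count by over 1.5 times. Without P746, 1 was lower at 48 against 24 HAI in mock leaves (4.26% of all genes) and 0 lower in the joint fit of 24 HAI (0.0165%). The cause of these differences was not tested. Counts with all loci, with adjusted p alone and with 1 library left out are given without the share of all genes called. Leaving out single libraries gave 0 to 25 higher and 0 to 9 lower in Dongnong47 at 48 HAI, 0 to 1 lower in Dongnong47 at 24 HAI, 0 to 13 higher and 0 to 2 lower in P746 at 48 HAI, 11 to 26 higher and 0 to 2 lower in the joint fit of 48 HAI, 0 to 4 lower in that of 24 HAI, 1 to 3 lower at 48 against 24 HAI in mock leaves, 0 to 5 lower in P203 mock leaves and 3 to 13 lower in P746 mock leaves. By contrast, members higher at 48 against 24 HAI stayed at 80 to 86 in infested and 59 to 64 in mock leaves. Of the 100 genes 84 to 98 were chosen again without single libraries, 84 and 71 with pseudocounts of 0.5 and 5, 87 with TMM-scaled CPM, 79 with medians, 84 with the left-out library and 80 without P746. None of the 26 called values of named genes changed sign, and of their recomputed values 466 kept their call and 74 lost it.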
